A study of Mus musculus with 16 samples.

Results

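Xenobiotic metabolism enzymes and targets of the transcription factor NRF2 were described in airway epithelial cells of mice, grown with their upper surface in air as 16 cultures. The group was given as 42 symbols in 3 classes: phase I enzymes, conjugation enzymes, and NRF2 with its antioxidant targets. A symbol was kept if a probe set was annotated to it alone, and the probe set with the highest mean over the 16 arrays stood for the gene. This left 39 members of the 18193 genes measured, with 16 of 17 phase I symbols, 12 of 12 conjugation symbols and 11 of 13 NRF2 symbols. Por, Prdx1 and Prdx6 had no such probe set. Some symbols had been selected on their log2 differences between the groups of these same arrays. Which ones is not recorded, so the members' differences are descriptions here. For each member the text says whether it passed the test run over all genes, but draws no support from that.

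All cells came from C57BL/6 mice and were taken as airway epithelium. The 4 groups of 4 arrays were wild-type uninjured, wild-type scratched, Mmp7-/- uninjured and Mmp7-/- scratched cultures, the last 2 being called Mmp7-null. Mmp7 encodes matrilysin, a secreted metalloproteinase. Serum was left out of the medium for the 24 hours that preceded RNA isolation in every culture, and scratched cultures received 3 scratches. The labels give neither the time between scratching and RNA isolation nor the animals behind each culture, so all errors measure the spread between these cultures, which may be technical.

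Detoxification proceeds in stages. Phase I enzymes such as cytochromes P450, flavin monooxygenases, aldehyde dehydrogenases and epoxide hydrolase oxidise, reduce or hydrolyse a compound. Conjugation enzymes then attach glutathione or sulfate, and transporters export the product. NRF2, encoded by Nfe2l2, is held in the cytoplasm by KEAP1 and degraded until electrophiles or oxidants modify KEAP1. NRF2 with a small MAF partner then binds antioxidant response elements near genes of glutathione synthesis, quinone reduction and peroxide removal. Secretory club cells of the airway are rich in these enzymes.

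Promoter stretches are shown for the measured members whose RefSeq promoter holds the core letters of an antioxidant response element before the start site, since these letters are what NRF2 is known to read. The window ran from 250 bases before to 50 bases after the start (RefSeq, GRCm38.p6), and 33 of the 42 symbols had one. The motif searched was TGACNNNGC on both strands. It can overlap the AP-1 motif TGACTCA. Capitals mark the motif, and on Mgst1, Gclm and Txnrd1 it lies on the opposite strand and so reads GC, any 3 letters, GTCA.
Gsta3: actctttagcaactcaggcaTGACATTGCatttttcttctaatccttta
Mgst1: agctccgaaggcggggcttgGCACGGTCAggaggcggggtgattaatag
Nfe2l2: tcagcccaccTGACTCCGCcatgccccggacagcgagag
Gclm: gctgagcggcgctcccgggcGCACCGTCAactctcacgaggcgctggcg
Txnrd1: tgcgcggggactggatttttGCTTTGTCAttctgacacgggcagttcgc
In the order given these are chr1:21240444-21240492 (plus strand), chr6:138140451-138140499 (plus), chr2:75704875-75704913 (minus), chr3:122245403-122245451 (plus) and chr10:82859094-82859142 (plus). Srxn1 and Cyp2j6 hold the motif after the start. The motif stood in 8 of 33 listed promoters: 5 of 9 in the NRF2 class, 2 of 11 in the conjugation class and 1 of 13 in the phase I class. It stood in 14.0% of all 27025 genes with a promoter. GCGTG, the core of the xenobiotic response element read by the aryl hydrocarbon receptor, stood in 11 of 33 (6 phase I, 2 conjugation and 3 NRF2), against 35.2% of all genes. These counts include Prdx1, which holds TGACNNNGC before the start, and Por, which holds GCGTG, though neither was measured. Txnrd1 also has promoter windows without TGACNNNGC. A match describes the letters and no binding was measured.

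Values are log2 intensities, on which a difference of 1 is a 2-fold change, and errors of differences are standard errors from limma. Mmp7 itself was at background on the arrays of both genotypes, with 2.16 ± 0.01 in wild-type uninjured, 2.17 ± 0.05 in wild-type scratched, 2.15 ± 0.02 in Mmp7-null uninjured and 2.31 ± 0.19 in Mmp7-null scratched cultures (SD, n = 4). Its level therefore does not check the genotype labels. Background, the 95th percentile of spiked-in control transcripts absent from an array, was 2.77. All 12 measured club cell markers and all 13 multiciliated cell markers had group means above it, all 6 endothelial markers lay below it, and so did 5 of 9 leukocyte markers (Ptprc, Itgam, Cd3e, Marco and S100a8). Spiked-in control transcripts divide the arrays into 3 sets. The Lys set holds 4 Mmp7-null arrays, the Trpn set holds 6 wild-type arrays, and the Phe set holds 6 arrays of both genotypes. What the sets stand for is not stated. Genotype and set overlap so far that genotype values are also given from a fit with the set as a block and from the Phe set alone. On signal or RNA integrity, 3 arrays stood apart: wild-type scratched 3 and 4 and Mmp7-null scratched 1. Of these, wild-type scratched 4 had a gap of 2.62 between the 3′ and 5′ actin probe sets, against 1.53 to 1.93 on the others.

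Of the 39 members, 38 had a mean above background. Fmo1, a flavin monooxygenase, was at 1.90. The spread was small, with a median SD within groups of 0.14 for members above background, beside 0.14 for all genes above background. In all, 23 members passed in at least 1 of the 5 comparisons (9 phase I, 10 conjugation and 4 NRF2) and 16 passed in none, beside 13.6% of all genes passing in at least 1.

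**Figure D1:**
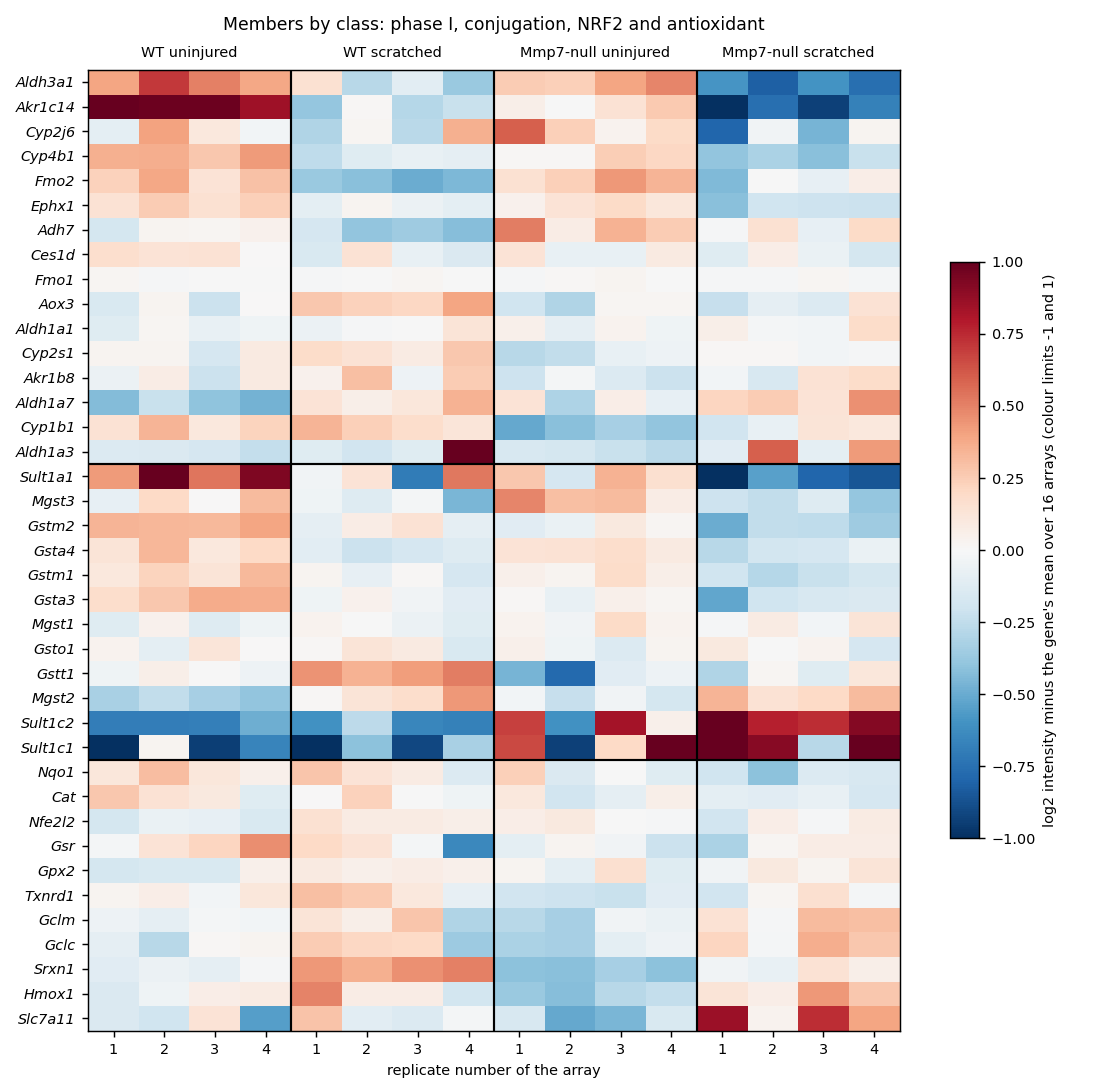
Each row is 1 member and each column 1 array, coloured by log2 intensity minus the gene's mean over the 16 arrays, with colour limits at -1 and 1. Akr1c14, Aldh3a1 and Sult1a1 are darkest blue in scratched Mmp7-null cultures, while Sult1c1 and Sult1c2 are red in most Mmp7-null arrays.

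After scratching, called phase I and conjugation enzymes fell more often than they rose, while the called members of the NRF2 class all rose. Passing or not, 8 phase I members lay above 0 and 8 below it in wild-type cultures, and 7 above and 9 below in Mmp7-null cultures. In wild-type cultures 5 members were higher and 9 lower after scratching, beside 2.55% and 2.30% of all genes and 4.85% in either direction. In Mmp7-null cultures 5 were higher and 10 lower, beside 2.27% and 2.45% of all genes and 4.72% in either direction. Both genotypes had calls for 10 members, which were Mgst2 and Srxn1, both higher, and Cyp4b1, Fmo2, Aldh3a1, Akr1c14, Ephx1, Gsta4, Gstm1 and Gstm2, all lower. In wild-type cultures all 4 scratched arrays lay above all uninjured arrays for 6 members and below them for 9, beside 4.21% and 5.82% of all genes. In Mmp7-null cultures the counts were 9 and 12, beside 4.10% and 8.72%. The median over the 39 members was 0.00 in wild-type and 0.02 in Mmp7-null cultures, beside 0.01 and -0.02 over all genes. In these bulk cultures, fewer cells of a type and less RNA per cell cannot be told apart. With the control-transcript set as a block 12 and 15 members passed, beside 4.20% and 3.85% of all genes. The block leaves these differences unchanged and alters only their errors. Each set holds as many scratched as uninjured arrays of a genotype. With the mean of a gene's probe sets in place of the brightest, Nfe2l2 lost its call in wild-type cultures and Cyp1b1, Fmo2, Srxn1 and Slc7a11 in Mmp7-null cultures. Without the 3 arrays standing apart, Aldh1a7, Aox3 and Gstm1 lost theirs in wild-type and Slc7a11 in Mmp7-null cultures. In that fit Txnrd1 gained a call in wild-type (0.24) and Mmp7-null cultures (0.24), as did Gclm (0.38) and Aldh1a3 (0.51) in Mmp7-null cultures. Txnrd1 has dimmer probe sets above background, which with all 16 arrays gave -0.19 and -0.19 in wild-type and 0.05 and 0.06 in Mmp7-null cultures.

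**Figure D2:**
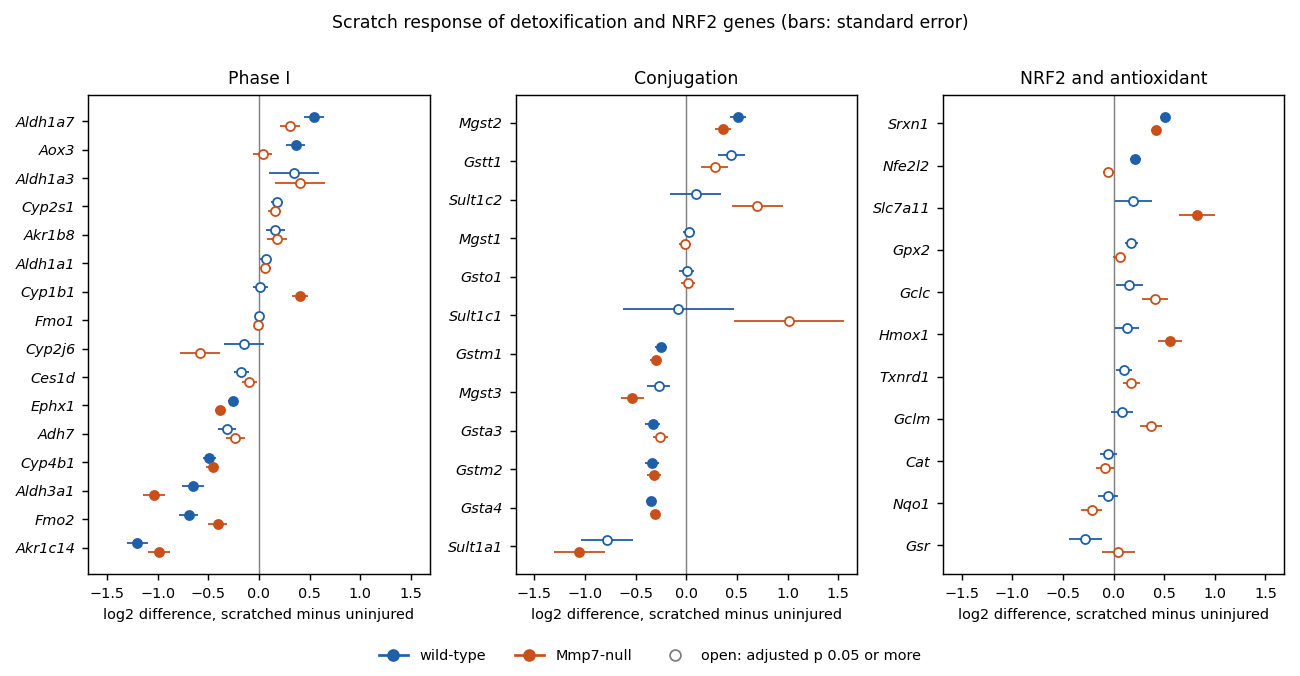
Points give the log2 difference between scratched and uninjured cultures for each member by class, in wild-type (blue) and Mmp7-null (orange) cultures, with standard errors (n = 4 per group). Filled points passed at an adjusted p of 0.05. Akr1c14 lies furthest to the left in wild-type cultures at -1.20, and Srxn1 is the highest NRF2 target there at 0.51.

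Among phase I enzymes, 2 rose and 5 fell in wild-type cultures, and 1 rose and 5 fell in Mmp7-null cultures. Akr1c14, an aldo-keto reductase acting on hydroxysteroids, had the largest fall in wild-type cultures. Its level was 10.87, 10.74, 10.73 and 10.60 in wild-type uninjured and 9.37, 9.77, 9.47 and 9.53 in wild-type scratched cultures. In Mmp7-null cultures it was 9.81, 9.75, 9.90 and 10.02 without and 8.62, 9.00, 8.82 and 9.08 with scratches. Scratched arrays lay below uninjured arrays in each genotype without overlap, and the falls were -1.20 ± 0.11 and -0.99 ± 0.11 (SE, n = 4 per group). Both calls were kept with the set as a block and in all 16 leave-outs, the fits without 1 of the arrays. Neither the block nor leaving out an array of the other genotype can change a scratch difference, only its error.

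Aldh3a1 oxidises aldehydes formed by lipid peroxidation. Its level was 12.28, 12.59, 12.39 and 12.28 in wild-type uninjured and 12.03, 11.61, 11.78 and 11.51 in wild-type scratched cultures. It was 12.14, 12.12, 12.28 and 12.37 in Mmp7-null uninjured and 11.29, 11.07, 11.29 and 11.13 in Mmp7-null scratched cultures. The groups were separated by scratching in both genotypes, and the falls were -0.65 in wild-type and -1.03 in Mmp7-null cultures. The difference between these responses, -0.38, did not pass.

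Cyp4b1, a lung P450 that activates furan pneumotoxins, fell by 0.49 ± 0.06 in wild-type and by 0.46 ± 0.06 in Mmp7-null cultures. Fmo2, the main flavin monooxygenase of lung, fell by 0.70 and by 0.41. Its 3 other probe sets above background gave -0.69 to -0.77 in wild-type and -0.42 to -0.73 in Mmp7-null cultures. The remaining probe set, below background, gave -0.01 and 0.01. Ephx1, the microsomal epoxide hydrolase, fell by 0.26 and by 0.38. These 3 enzymes lay lower on every scratched array than on any uninjured array of the same genotype.

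Other phase I members rose in 1 genotype. Aldh1a7, a relative of the retinaldehyde dehydrogenase Aldh1a1, rose by 0.55 in wild-type cultures, from 10.96 ± 0.11 to 11.50 ± 0.12. In Mmp7-null cultures it measured 11.29 ± 0.20 before and 11.60 ± 0.14 after scratching (SD, n = 4), a difference of 0.31 that did not pass. Aldh1a1, its neighbour on chromosome 19, differed by 0.07 and 0.06. Aox3, an aldehyde oxidase, rose by 0.36 in wild-type cultures and differed by 0.04 in Mmp7-null cultures. The Aox3 call was lost in 8 of 16 leave-outs and with the set as a block. Cyp1b1, a P450 that oxidises polycyclic aromatics, rose by 0.41 ± 0.07 in Mmp7-null cultures and differed by 0.01 ± 0.07 in wild-type cultures. The difference between these Cyp1b1 responses was 0.39 ± 0.11 and did not pass.

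The other phase I members passed in neither genotype. Aldh1a1, Ces1d, a carboxylesterase, and Akr1b8, an aldose reductase relative, differed by at most 0.18 in size. Cyp2s1, an extrahepatic P450, differed by 0.18 and 0.16, and Adh7, a retinol-oxidising alcohol dehydrogenase, by -0.32 and -0.23. Cyp2j6, of a P450 subfamily that epoxidises arachidonic acid, differed by -0.15 in wild-type and by -0.58 in Mmp7-null cultures. Aldh1a3, another retinaldehyde dehydrogenase, was below background on every uninjured array and reached 3.98 on wild-type scratched 4 and 3.44 and 3.27 on Mmp7-null scratched 2 and 4. Fmo1 stayed below background on the 16 arrays.

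Among conjugation enzymes, 1 rose and 4 fell in wild-type cultures, and 1 rose and 5 fell in Mmp7-null cultures. All but 1 of the enzymes that fell were glutathione S-transferases, which attach glutathione to electrophiles, and the other was the sulfotransferase Sult1a1 in Mmp7-null cultures. Gsta4, whose preferred substrate is the lipid aldehyde hydroxynonenal, fell by 0.35 in wild-type and by 0.31 ± 0.05 in Mmp7-null cultures. Gstm1 fell by 0.25 and 0.30, and its neighbour Gstm2 on chromosome 3 by 0.34 and 0.32. With arrays centred on their medians, the Gstm1 and Gstm2 calls were lost in both genotypes. Gsta3 fell by 0.33 in wild-type cultures and differed by -0.26 in Mmp7-null cultures, where the groups did not overlap but the test did not pass. Mgst3, a membrane-bound glutathione transferase, fell by 0.53 in Mmp7-null cultures and differed by -0.27 in wild-type cultures. Mgst2, of the same membrane family, rose by 0.51 and by 0.37 ± 0.08. Mgst1 and Gsto1 differed by at most 0.03 in size in either genotype, and Gstt1 by 0.44 and 0.28 without passing. A second Gsto1 probe set, with a mean of 15.07 beside 15.11, gave 0.14 in wild-type and 0.04 in Mmp7-null cultures.

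Sult1a1, a phenol sulfotransferase, was 5.95, 6.69, 6.06 and 6.45 in wild-type uninjured and 5.49, 5.66, 4.82 and 6.05 in wild-type scratched cultures. In Mmp7-null cultures it was 5.79, 5.36, 5.87 and 5.69 without and 4.09, 4.97, 4.73 and 4.67 with scratches. The Mmp7-null groups were separated and the fall was -1.06, a call lost in 6 of 16 leave-outs. The wild-type groups overlapped through wild-type scratched 4, and the difference of -0.78 did not pass.

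The NRF2 class had no called fall after scratching, with 2 rises in wild-type and 3 in Mmp7-null cultures. Its median difference was 0.13 in wild-type and 0.17 in Mmp7-null cultures. Srxn1, the sulfiredoxin that reactivates oxidised peroxiredoxins, was the NRF2 member that rose in both genotypes. It was 9.71, 9.77, 9.73 and 9.82 in wild-type uninjured and 10.26, 10.18, 10.28 and 10.33 in wild-type scratched cultures. It was 9.42, 9.41, 9.50 and 9.42 in Mmp7-null uninjured and 9.79, 9.75, 9.97 and 9.88 in Mmp7-null scratched cultures. Scratched arrays were above uninjured arrays in both genotypes, and the rises were 0.51 and 0.41. The other Srxn1 probe sets above background gave 0.24 and 0.27 in wild-type and 0.17 and 0.04 in Mmp7-null cultures. The last, below background, gave 0.26 and -0.05.

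Nfe2l2 itself was 12.03, 12.14, 12.12 and 12.05 in wild-type uninjured and 12.36, 12.28, 12.29 and 12.26 in wild-type scratched cultures. It was 12.27, 12.30, 12.20 and 12.19 in Mmp7-null uninjured and 12.01, 12.27, 12.19 and 12.28 in Mmp7-null scratched cultures. The wild-type groups were separated, with a rise of 0.21, and the Mmp7-null groups overlapped, with a difference of -0.05. The rise was kept under 6 of 14 alternative settings. A dimmer second probe set, with a mean of 3.79, gave 0.30 in wild-type and -0.87 in Mmp7-null cultures.

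Hmox1, heme oxygenase, was 8.05, 8.15, 8.26 and 8.28 in wild-type uninjured and 8.69, 8.27, 8.27 and 8.01 in wild-type scratched cultures. It was 7.82, 7.77, 7.91 and 7.96 in Mmp7-null uninjured and 8.33, 8.26, 8.62 and 8.46 in Mmp7-null scratched cultures. It rose by 0.55 in Mmp7-null cultures, where the groups were separated. Wild-type groups overlapped, with a difference of 0.13.

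Gclc and Gclm encode the catalytic and modifier subunits of glutamate-cysteine ligase, the first enzyme of glutathione synthesis. Gclc was 12.79, 12.60, 12.89 and 12.90 in wild-type uninjured and 13.13, 13.08, 13.07 and 12.51 in wild-type scratched cultures. It was 12.56, 12.54, 12.77 and 12.82 in Mmp7-null uninjured and 13.09, 12.86, 13.24 and 13.14 in Mmp7-null scratched cultures. The Mmp7-null groups did not overlap, with a difference of 0.41 that did not pass. In wild-type cultures the difference was 0.16, and the scratched array that overlapped was again replicate 4. Gclm was 10.79, 10.75, 10.81 and 10.81 in wild-type uninjured and 10.96, 10.89, 11.11 and 10.53 in wild-type scratched cultures. It was 10.56, 10.51, 10.80 and 10.77 in Mmp7-null uninjured and 10.98, 10.83, 11.15 and 11.14 in Mmp7-null scratched cultures. Both subunits thus had the same layout, with separated Mmp7-null groups and 1 low wild-type scratched array. The Gclm differences were 0.09 and 0.37, neither passing.

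Wild-type scratched 4, the array with the wide actin gap, was the lowest of its group for 8 of 11 NRF2 members, for 6 of 12 conjugation members and for 4 of 16 phase I members. Without it the wild-type scratch differences were 0.30 for Gclc, 0.20 for Gclm, 0.23 for Hmox1 and 0.18 for Txnrd1, none passing, and the median of the NRF2 class was 0.20 in place of 0.13. As with all arrays, where 4.85% of all genes passed, 14 members passed in wild-type cultures without it. Aox3 lost its call (0.32) and Sult1a1 gained one (-0.96). The share of all genes without that array is not given here. The part of RNA integrity in these values was not tested.

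Slc7a11, the cystine importer that supplies glutathione synthesis, was 3.85, 3.79, 4.12 and 3.44 in wild-type uninjured and 4.27, 3.88, 3.85 and 3.97 in wild-type scratched cultures. It was 3.83, 3.48, 3.53 and 3.83 in Mmp7-null uninjured and 4.84, 4.02, 4.73 and 4.38 in Mmp7-null scratched cultures. It rose by 0.83 in Mmp7-null cultures and differed by 0.20 in wild-type cultures, where the groups overlapped. A dimmer second probe set gave 0.15 in Mmp7-null and 0.26 in wild-type cultures. The call was kept under 8 of 14 alternative settings and in 12 of 16 leave-outs, and was lost with array weights.

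Nqo1, the quinone reductase often read as an NRF2 target, was 9.91, 10.10, 9.91 and 9.85 in wild-type uninjured and 10.08, 9.94, 9.88 and 9.66 in wild-type scratched cultures. It was 10.04, 9.65, 9.79 and 9.68 in Mmp7-null uninjured and 9.60, 9.39, 9.66 and 9.64 in Mmp7-null scratched cultures. Groups overlapped in both genotypes, with differences of -0.06 and -0.22 that did not pass. Txnrd1, the cytosolic thioredoxin reductase, differed by 0.10 and 0.17, Gsr, glutathione reductase, by -0.28 and 0.05, Cat, catalase, by -0.05 and -0.09, and Gpx2, the epithelial glutathione peroxidase, by 0.17 and 0.06.

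**Figure D3:**
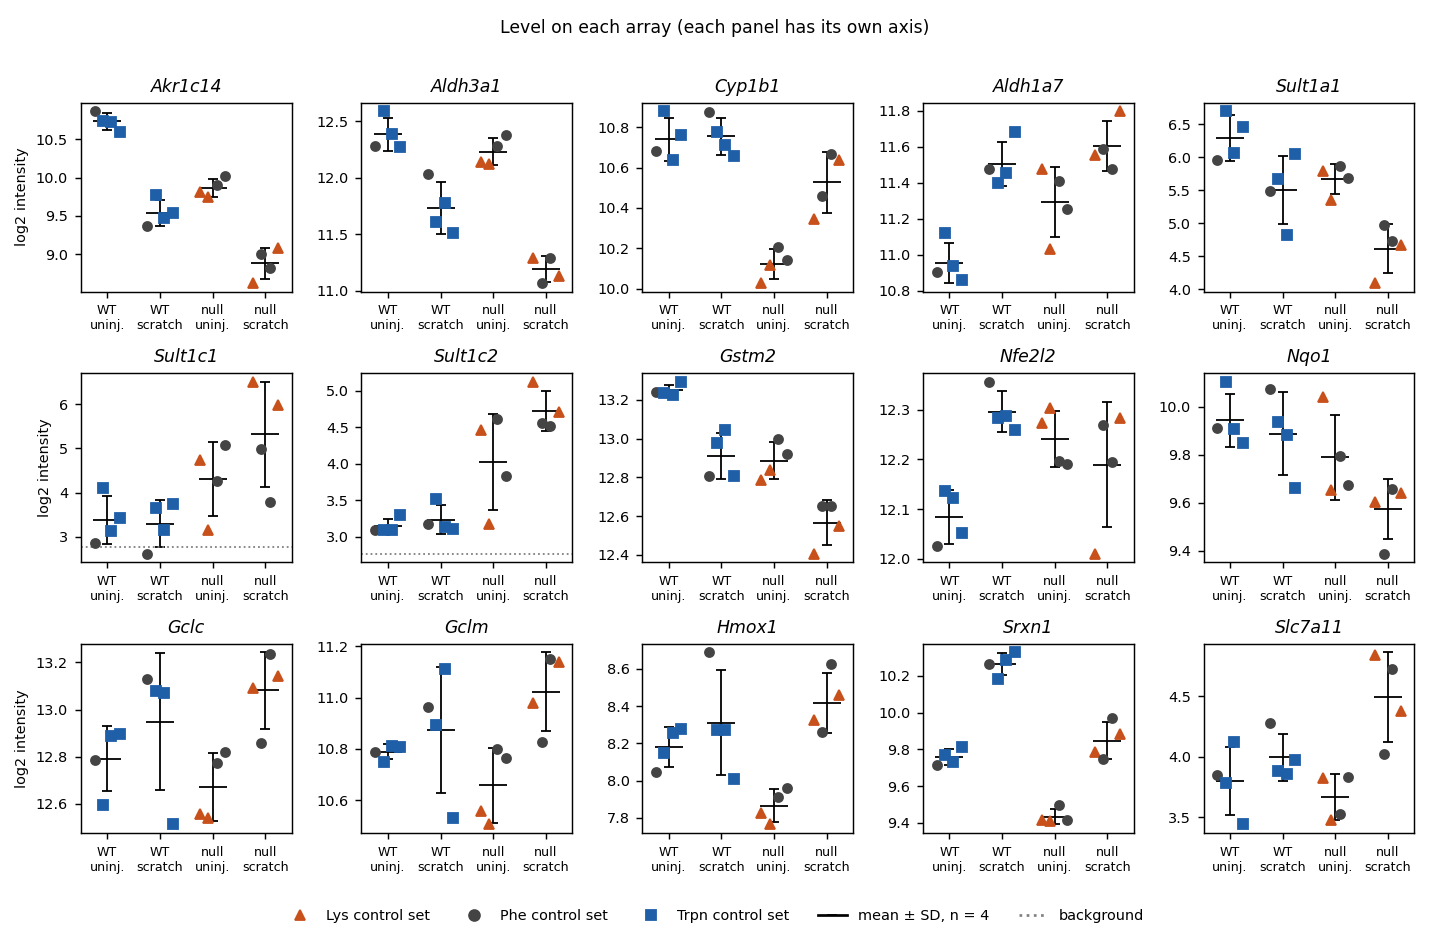
Log2 intensity on each array for 15 members in the 4 groups, with the mean and SD (n = 4) and a marker shape for the control-transcript set; each panel has its own axis, and the dotted line is background. Srxn1 groups do not overlap after scratching in either genotype, and Gclc and Gclm each show 1 low wild-type scratched array. Hmox1 values in that group run from 8.01 to 8.69.

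No member passed in the test of the difference between the genotypes' scratch responses, in which 0.132% of all genes passed. At an unadjusted p under 0.05 there were 7 members with limma as fitted, 7 with a trended and robust variance and 5 with array weights, beside 7.79%, 7.09% and 10.2% of all genes, and no member passed adjustment with the other fits either. Calls made in 1 genotype alone are therefore not shown to differ between genotypes.

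Between genotypes, called members were lower in Mmp7-null cultures except for Adh7, Sult1c1 and Sult1c2. In uninjured cultures none was higher and 5 were lower, beside 2.30% and 2.50% of all genes and 4.79% in either direction. In scratched cultures 3 were higher and 7 lower, beside 3.29% and 2.92% of all genes and 6.21% in either direction. With arrays centred on their medians the scratched comparison split into 623 higher and 879 lower genes in place of 599 and 531. Akr1c14, Gstm2 and Srxn1 were lower in both states. All 4 Mmp7-null arrays lay above the wild-type arrays for 3 members and below for 9 in uninjured cultures, beside 5.44% and 6.22% of all genes. In scratched cultures the counts were 3 and 12, beside 4.19% and 28.5% of all genes. The median over members was -0.12 in uninjured and -0.08 in scratched cultures, beside -0.01 and -0.04 over all genes.

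The genotype calls rest on arrays that differ in control-transcript set. With the set as a block, 1 member passed in uninjured cultures, Cyp1b1 at -0.60, and 1 in scratched cultures, Srxn1 at -0.38, beside 0.313% and 1.39% of all genes. The Phe set holds 2 arrays of each Mmp7-null group but 1 of each wild-type group, so its tests assume that a lone array varies like the others. Within it, no member passed in uninjured cultures and 1 passed in scratched cultures, Aldh3a1 at -0.86. Without the 3 arrays standing apart, Adh7, Ephx1, Aox3, Gstt1, Sult1c1 and Sult1c2 lost their calls in scratched cultures. Calls were gained there by Fmo2 (0.39) and Txnrd1 (-0.23), and in uninjured cultures by Txnrd1 (-0.23) and Nfe2l2 (0.16). With the mean of probe sets Cyp1b1 and Srxn1 lost their calls in uninjured cultures. The dimmer Txnrd1 probe sets, with all arrays, gave 0.07 and 0.07 in scratched and -0.18 and -0.18 in uninjured cultures. Genotype and set cannot be told apart for the arrays outside the Phe set.

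**Figure D4:**
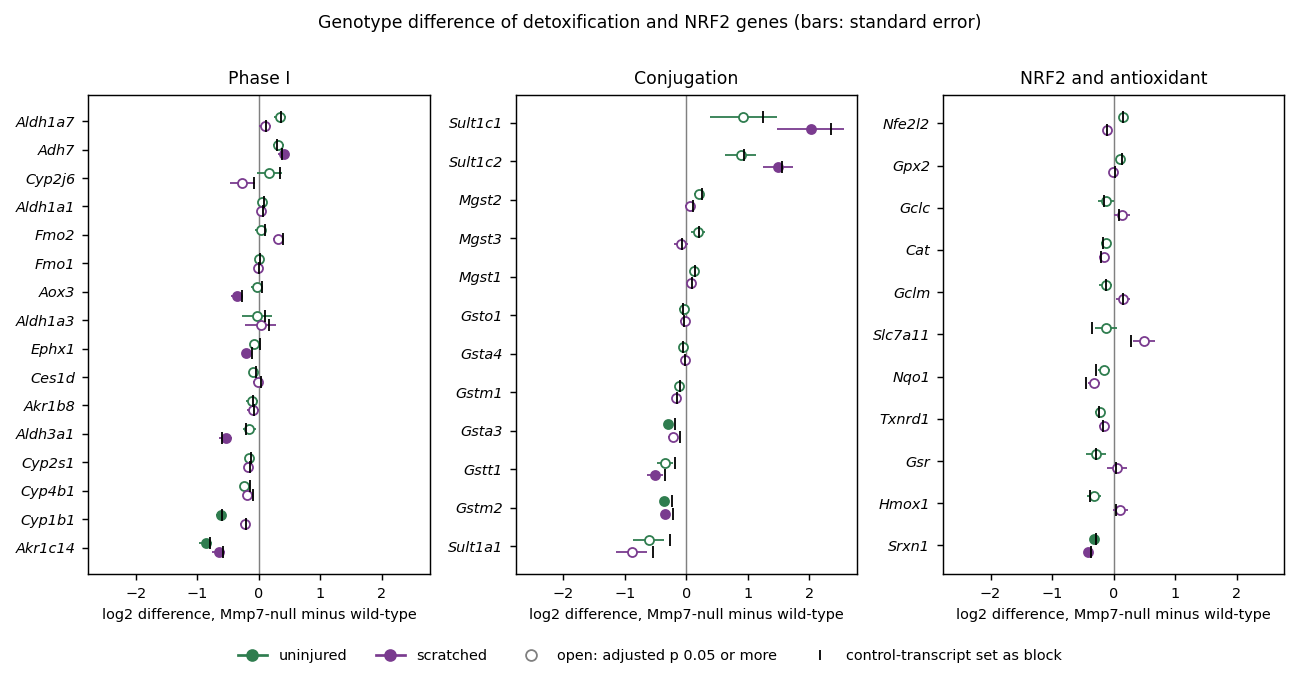
Points give the log2 difference between Mmp7-null and wild-type cultures for each member, in uninjured (green) and scratched (purple) cultures, with standard errors (n = 4 per group); filled points passed at an adjusted p of 0.05 and black ticks give the value with the control-transcript set as a block. Sult1c1 and Sult1c2 lie furthest right, and Akr1c14 and Sult1a1 furthest left.

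Sult1c1 and Sult1c2, sulfotransferases that lie side by side on chromosome 17, were the members with the largest excess in Mmp7-null cultures. Sult1c1 was 2.85, 4.10, 3.13 and 3.41 in wild-type uninjured and 2.61, 3.66, 3.16 and 3.75 in wild-type scratched cultures. It was 4.73, 3.14, 4.27 and 5.07 in Mmp7-null uninjured and 6.51, 4.98, 3.80 and 5.98 in Mmp7-null scratched cultures. The scratched groups were separated by a narrow margin and the uninjured groups overlapped. The scratched difference was 2.02 ± 0.55, a call kept under 5 of 13 alternatives and 4 of 16 leave-outs, and was 2.34 with the block and 1.77 within the Phe set. Sult1c2 was 3.09, 3.08, 3.09 and 3.29 in wild-type uninjured and 3.18, 3.52, 3.13 and 3.10 in wild-type scratched cultures. It was 4.47, 3.18, 4.61 and 3.83 in Mmp7-null uninjured and 5.12, 4.55, 4.52 and 4.70 in Mmp7-null scratched cultures. The scratched groups were well separated, while 1 Mmp7-null uninjured array lay among the wild-type arrays. The scratched difference of 1.49 ± 0.25 was kept in all 16 leave-outs and was 1.55 with the block, which did not pass. In uninjured cultures the differences were 0.93 for Sult1c1 and 0.88 for Sult1c2, neither passing, and 1.25 and 0.94 with the block.

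Sult1a1, the phenol sulfotransferase, lay the other way, at -0.61 in uninjured and -0.89 ± 0.25 in scratched cultures without passing, and at -0.27 and -0.54 with the block. Among glutathione transferases, Gstm2 was lower by -0.36 and -0.35 ± 0.07, with values of -0.23 and -0.21 with the block. Gsta3 was lower by -0.30 in uninjured and differed by -0.22 in scratched cultures, and the block gave -0.18 and -0.10. Gstt1 was lower by -0.50 ± 0.13 in scratched cultures, a call kept in 6 of 16 leave-outs, and was -0.35 with the block. Gstm1, Gsta4, Gsto1, Mgst1, Mgst2 and Mgst3 passed in neither state, and their differences ran from -0.17 for Gstm1 to 0.21 for Mgst2.

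In the phase I class Akr1c14 had the largest called deficit, at -0.87 in uninjured and -0.65 ± 0.11 in scratched cultures. Its Mmp7-null arrays lay below its wild-type arrays in each state, as in the values given above, and the difference was -0.79 and -0.58 with the block and -0.91 and -0.45 within the Phe set. Cyp1b1 was 10.68, 10.88, 10.64 and 10.76 in wild-type uninjured and 10.03, 10.12, 10.21 and 10.14 in Mmp7-null uninjured cultures. These groups were far apart, with a deficit of -0.62 ± 0.07, and a second probe set gave -0.66. In scratched cultures, with 10.87, 10.78, 10.71 and 10.66 against 10.35, 10.46, 10.67 and 10.64, the groups overlapped and the difference of -0.23 did not pass.

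Aldh3a1 was lower by -0.54 ± 0.11 in scratched cultures and differed by -0.15 in uninjured cultures. Aox3 was lower by -0.36 and Ephx1 by -0.20 in scratched cultures, beside -0.03 and -0.08 in uninjured cultures. With the block these scratched values were -0.60 for Aldh3a1, -0.27 for Aox3 and -0.11 for Ephx1. Adh7 was higher by 0.40 in scratched and differed by 0.32 in uninjured cultures, where the groups also did not overlap, and the block gave 0.38 and 0.30. The remaining phase I members passed in neither state.

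In the NRF2 class Srxn1 alone passed with all 16 arrays, lower in Mmp7-null cultures by -0.32 in uninjured and -0.42 ± 0.05 in scratched cultures. With the block it was -0.28, which did not pass, and -0.38, which did. Its 4 groups lay in the order Mmp7-null uninjured, wild-type uninjured, Mmp7-null scratched and wild-type scratched, and the middle pair overlapped. Hmox1 and Txnrd1 were also lower on every Mmp7-null uninjured array than on any wild-type uninjured array, with differences of -0.32 and -0.23 that did not pass, and -0.39 and -0.24 with the block. In scratched cultures Hmox1 differed by 0.11, Gclc by 0.13 and Gclm by 0.15, with overlap, and without wild-type scratched 4 by 0.01, -0.01 and 0.04. Nqo1 was lower on every Mmp7-null scratched array, as were 28.5% of all genes, at -0.32 without passing, and passed at -0.39 without wild-type scratched 4. The block gave -0.45 for Nqo1, which did not pass. Nfe2l2 was higher on every Mmp7-null uninjured array, at 0.16, while its scratched groups overlapped at -0.11, and the block gave 0.15 and -0.11.

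Markers of several cell types moved with genotype or scratching. Of 13 multiciliated cell markers, 10 were higher in Mmp7-null uninjured and 11 in Mmp7-null scratched cultures, and their summed linear intensity ran from 11783 to 14825 on wild-type and from 17991 to 23263 on Mmp7-null arrays. Of 11 alveolar epithelial markers, 5 were lower and 1 higher in uninjured and 7 lower and 1 higher in scratched cultures. Their sums ran from 26047 to 30121 on wild-type and from 16042 to 24551 on Mmp7-null arrays. Cldn18 was below background in both Mmp7-null groups, and Rtkn2 in every group of both genotypes. The 12 club cell markers had sums between 162483 and 191785 with overlap between all groups. By genotype, 1 of the 12 was called lower in uninjured and 2 higher in scratched Mmp7-null cultures. Of all genes, 4.79% and 6.21% were called there in either direction. With scratching, the goblet cell markers Muc5b and Agr2, 2 of 8, rose in each genotype. Goblet marker sums ran from 643 to 774 in wild-type uninjured, 4034 to 4450 in wild-type scratched, 611 to 1027 in Mmp7-null uninjured and 1947 to 2883 in Mmp7-null scratched cultures. Sums of 10 fibroblast and smooth muscle markers ran from 134 to 363 on wild-type and from 235 to 685 on Mmp7-null arrays, with Col1a1, Col1a2 and Lum below background in every group. Of 12 basal cell markers, Krt5 (-0.80), Itgb4 (-0.55) and Trp63 (-0.48) fell and Krt17 (0.71) rose in scratched wild-type cultures. In scratched Mmp7-null cultures Krt5 (-0.45) fell and Krt17 (0.93) and Sfn (0.54) rose. Basal sums ran from 11085 to 14188 with overlap between groups. By genotype, 2 basal markers were called lower in uninjured Mmp7-null cultures, and 1 higher and 2 lower in scratched ones. Of the club cell markers, Gabrp fell with scratching in both genotypes (-0.74 and -0.51), and in Mmp7-null cultures Krt15 (-0.45) fell while Cd177 (1.41) and Hp (0.54) rose. Of 9 leukocyte markers, Cd68 rose by 1.03 in wild-type cultures. By genotype, 1 of the 9 leukocyte and 1 of the 8 goblet markers were called lower in scratched Mmp7-null cultures. For the difference between scratch responses, 1 leukocyte and 1 goblet marker passed, both lower. Leukocyte sums ran from 6504 to 8662 without and 8707 to 11067 with scratches in wild-type, and from 6443 to 8763 and 8915 to 11150 in Mmp7-null cultures. The part of these cells in the members' differences was not tested.

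Another 148 measured genes of the same pathways, of 163 listed, were counted in the same fit. In wild-type cultures 8 rose and 6 fell after scratching, and in Mmp7-null cultures 3 rose and 17 fell, beside 4.85% and 4.72% of all genes in either direction. With the set as a block 11 and 19 passed after scratching, beside 4.20% and 3.85% of all genes. Cul3, Akr1c18, Gstt2 and Slco3a1 lost their wild-type calls, Txnrd2 lost its Mmp7-null call, and Blvrb gained a wild-type call. Mmp7-null cultures had 1 gene higher and 13 lower when uninjured and 3 higher and 17 lower when scratched, beside 4.79% and 6.21% of all genes. With the set as a block these genotype counts became 0 and 6 in all, with 27 and 30 genes at an unadjusted p under 0.05, beside 9.23% and 12.4% of all genes. All 14 and all 20 of the called differences kept their sign with the block. None passed for the difference between scratch responses by limma, and 18 had an unadjusted p under 0.05, beside 7.79% of all genes. List medians over the 148 genes were 0.01, -0.02, -0.01 and -0.06 in these comparisons.

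Among 17 regulators, 2 passed after scratching in wild-type cultures and 1 in Mmp7-null cultures, beside 4.85% and 4.72% of all genes. Mafk, an NRF2 partner, rose by 0.31 in wild-type (limma adjusted p = 0.027) and Mafg, another partner, by 0.52 in Mmp7-null cultures (limma adjusted p = 0.0091). Mafg was also higher on every scratched wild-type array, by 0.37, without passing. Mafk differed by 0.14 in Mmp7-null cultures with overlapping groups. For neither gene did the difference between scratch responses pass. Cul3, the ubiquitin ligase scaffold that works with KEAP1, fell by 0.21 in wild-type cultures (limma adjusted p = 0.042). Its fall did not pass with the set as a block (limma adjusted p = 0.061). Keap1 was lower by -0.34 in Mmp7-null uninjured cultures (limma adjusted p = 0.039), with overlapping groups. Rxra, a partner of several xenobiotic receptors, was lower by -0.35 there (limma adjusted p = 0.018), and Mafk was lower by -0.33 in scratched Mmp7-null cultures. Tiparp, a target and repressor of the aryl hydrocarbon receptor, was higher in Mmp7-null cultures by 0.40 uninjured and 0.36 scratched. Ahr, the receptor itself, was higher by 0.21 in scratched Mmp7-null cultures with overlapping groups. Its target Cyp1a1 had a mean of 2.74 and its repressor Ahrr of 2.30, both below background.

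Among 27 other antioxidant and NADPH genes, 1 passed after scratching in wild-type cultures and 7 in Mmp7-null cultures. Of all genes, 4.85% and 4.72% passed in these comparisons. The wild-type rise was Prdx4, a secretory-pathway peroxiredoxin, at 0.30 (limma adjusted p = 0.014). Gpx1, the common glutathione peroxidase, fell by 0.44 in Mmp7-null cultures (limma adjusted p = 0.0078), as did Txnrd2 by 0.46, Blvrb by 0.39 and Msrb1 by 0.36. The rise there, outside the 4 largest differences, was Pgd, of the pentose phosphate pathway, at 0.23. Blvrb, biliverdin reductase B, was also lower in Mmp7-null cultures by -0.42 uninjured and -0.64 scratched, and in the scratched state it passed with the block at -0.45 (limma adjusted p = 0.0064). Me1, the cytosolic malic enzyme, was lower by -0.42 in uninjured Mmp7-null cultures, and Taldo1, transaldolase, and Txnrd2 by -0.37 and -0.57 in scratched ones.

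Among 55 other phase I genes, Ces1g, a carboxylesterase, fell after scratching by 0.69 in wild-type and 0.71 in Mmp7-null cultures (limma adjusted p = 0.016 and 0.015). Another carboxylesterase, Ces2e, rose by 0.79 in wild-type cultures with overlapping groups, and Cyp3a13 fell by 0.83 in Mmp7-null cultures. Cbr3, a carbonyl reductase, rose by 0.31 in Mmp7-null cultures. Cyp2b10, a target of the constitutive androstane receptor, was lower in Mmp7-null cultures by -0.57 uninjured and -0.76 scratched. In the scratched state it passed with the block at -0.59 (limma adjusted p = 0.023). Maoa, a monoamine oxidase, fell by 0.31 in Mmp7-null cultures and was lower there than in wild-type by -0.26 uninjured and -0.41 scratched, and Aox1, neighbour of Aox3 on chromosome 1, was higher by 0.41 in scratched Mmp7-null cultures.

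Among 31 other conjugation genes, Gsta2 fell by 0.57 in wild-type and 0.89 in Mmp7-null cultures after scratching (limma adjusted p = 0.023 and 0.0017), and Gstp1 by 0.20 and 0.21. Gstt3 fell by 0.43 and Gstm3 by 0.35 in Mmp7-null cultures, and Gstt2 rose by 0.78 in wild-type cultures. Ugt2b34, a glucuronosyltransferase, rose by 1.03 in wild-type cultures and was lower in Mmp7-null cultures by -1.03 uninjured and -1.49 scratched. In the scratched state it passed with the block at -1.80 (limma adjusted p = 0.039). Gstk1, the kappa-class transferase, was lower by -0.53 and -0.66, and in scratched Mmp7-null cultures Sult1d1, another sulfotransferase, by -0.57 and Gstt3 by -0.51. Papss2, which makes the sulfate donor used by sulfotransferases, was lower by -1.30 in uninjured Mmp7-null cultures (limma adjusted p = 0.0053).

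Among 18 transporters, Abcc1, which exports glutathione conjugates, rose by 0.23 in wild-type cultures after scratching (limma adjusted p = 0.0017). Slco4a1 rose by 0.37 and Slco3a1 fell by 0.35 there, both being organic anion transporters, and Slco2a1, a prostaglandin transporter, fell by 0.43 in wild-type and 0.47 in Mmp7-null cultures. Slc22a5, the carnitine importer, fell by 0.40 in Mmp7-null cultures. In uninjured Mmp7-null cultures Slco3a1 was lower by -0.57 and Slco4a1 by -0.29, and in scratched ones Slco4a1 by -0.49 and Slco2a1 by -0.40. Abcc3, an exporter of organic anion conjugates, fell by 0.25 in Mmp7-null cultures and was lower than wild-type by -0.48 uninjured and -0.63 scratched. With the block, scratched Abcc3 was -0.56 (limma adjusted p = 0.016) and scratched Slco4a1 -0.44 (limma adjusted p = 0.022).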

How the data were processed

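RNA of 16 cultures was hybridised to 1 Affymetrix expression array each. The authors deposited intensity values made with RMA, per the submitters' processing notes, on a linear scale. The labels name a smaller array type than the 45101 probe sets belong to. Values were converted to log2 with no further normalization. The 64 control probe sets and those with several or no symbols were left out. In R 4.3.3 with limma 3.58.1, lmFit with 1 mean per group and eBayes was run on all genes and 16 arrays (12 residual degrees of freedom), with Benjamini-Hochberg adjustment and a threshold of 0.05. The code was tested on simulated data. Members and lists were chosen with earlier results of these data known, and members passing a comparison with a difference of 1 or more, with Nfe2l2, Nqo1, Gclc, Gclm and Hmox1, are given by array; Srxn1, Slc7a11 and Cyp1b1 were added after their values were seen. For each pathway list up to 4 of the largest called differences per comparison are named, those of the Akr1c family in the closing section. Por, without a probe set of its own, and protein sequences of paralogs were not analysed here. Alternatives were blocks, normalization, filter, floor, probe set choice, variance, weights and left-out arrays. The number of arrays limits the precision.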

Additional observations from a re-analysis of the deposited data

Results flagged for a closer look

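In 40 groups of 4 arrays tested for a lone array, 2 held an array far from the other 3. Chance gives about 1 in 20. The groups were those of the array-level members, without Srxn1, Slc7a11 and Cyp1b1, which were not tested. Sult1c2 on wild-type uninjured replicate 4 was 3.29 where the nearest array was 3.09, a gap of 0.966 of the group's range. Gclc on wild-type scratched replicate 4 was 12.5 where the nearest array was 13.07, a gap of 0.907 of the range. That array also had the widest actin gap.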

How the results depend on the processing

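No result reversed, and 1109 of the checks on single members kept the call while 196 lost it. These checks covered only calls made in the main fit, so a gained call could not count. In many of them, such as leave-outs outside the 2 groups compared, the difference could not change, only its error. A kept sign there was fixed in advance. Counts of members passing were 14 and 15 for scratching in wild-type and Mmp7-null cultures, 5 and 10 for genotype in uninjured and scratched cultures, and 0 for the difference between responses. Leaving out 1 array gave 11 to 16, 11 to 17, 4 to 7, 5 to 10 (5 without wild-type scratched replicate 2) and 0 to 0. Within control-transcript sets, wild-type scratching gave 9 (Trpn) and 3 (Phe), and Mmp7-null scratching 5 (Lys) and 3 (Phe). The Phe set holds 1 array of each wild-type group, whose spread is assumed to be that of the other arrays. Genotype in scratched cultures gave 17 with array weights, 5 with the 2 groups only, 1 with the set as a block, 1 within the Phe set and 6 without the 3 arrays standing apart. Genotype in uninjured cultures gave 8 with array weights, 1 with the set as a block, 3 with the mean of probe sets, 0 within the Phe set and 8 without the dimmest 40% of genes. For the other pathway genes, array median centring gave 2 for the difference between responses in place of 0. The set as a block gave 6 in place of 20 for genotype in scratched and 0 in place of 14 in uninjured cultures. Beside these block counts stood 0.313% of all genes in uninjured and 1.39% in scratched cultures. For the other settings no share of all genes is given here. Without that share, the member counts given here do not show whether a change was particular to the members. The cause of these changes was not tested. With the replicate number as a block, members passing were 13, 15, 6, 9 and 0, and other pathway genes 9 in place of 14 for wild-type scratching. Same-numbered arrays had correlations of deviations from -0.216 to 0.316, so the numbers were not taken as pairs.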

Other observations

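Akr1c14 lies in a cluster of aldo-keto reductase genes on chromosome 13, and 9 Akr1c genes were measured. These were looked at after the Akr1c14 values had been seen. Akr1c18, a progesterone-reducing enzyme beside Akr1c14, rose by 0.46 ± 0.11 after scratching in wild-type cultures, where Akr1c14 fell, and differed by 0.02 in Mmp7-null cultures. With the block Akr1c18 did not pass for this rise (limma adjusted p = 0.051). It was lower in Mmp7-null cultures by -0.63 uninjured and -1.08 scratched, and the scratched value was -0.99 with the control-transcript set as a block (limma adjusted p = 0.021). Akr1c13 was lower by -0.48 in scratched Mmp7-null cultures (limma adjusted p = 0.0022) and differed by 0.04 in uninjured ones, and with the block the scratched value was -0.50 (limma adjusted p = 0.068). Akr1c12 passed in no comparison, with differences between -0.17 and 0.32. Akr1c6, Akr1c19, Akr1c21 and Akr1cl had means below background, and Akr1c20 lay at 2.90 against a background of 2.77.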
